A study of Mus musculus with 12 samples.

Results

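The de novo lipogenesis genes described here are the 9 named enzymes and regulators Acly, Acaca, Acacb, Fasn, Acss2, Me1, Thrsp, Mlxipl and Srebf1, taken by symbol from a table of 24452 genes. All 9 were found, and all 9 reached the mean level of 0.5 RPKM (reads scaled to gene length and library total) asked of a gene for testing, as did 12249 genes in all. The libraries are bulk RNA-seq of brown fat from male C57BL/6J Bom mice in 4 groups of 3 libraries. WT_PBS and WT_CL are littermates with floxed ERRα and ERRγ alleles and no Cre, which serve as wild type. ERRKO_PBS and ERRKO_CL are ERRαγAd-/- mice, in which Cre under the adiponectin promoter deletes both floxed receptors in adipocytes, while other cells of the tissue keep them. Within each genotype, mice received either the β3-adrenergic agonist CL316,243 at 1 mg/kg or an equal volume of PBS. The intraperitoneal injections were daily at ZT 4 over 10 days, and tissue was taken 24 hours after the last one. All groups were housed at 30 °C on a standard chow diet and were 12 weeks old at collection. The labels do not say whether a library holds 1 animal or a pool, and the p-values speak only of how much these libraries vary.

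De novo lipogenesis builds fatty acids from acetyl-CoA in the cytosol. Citrate leaves the mitochondrion and is cleaved to acetyl-CoA by ATP citrate lyase (Acly), and acetate is activated to the same product by Acss2. Acetyl-CoA carboxylase 1 (Acaca) makes malonyl-CoA for fatty acid synthase (Fasn), whereas acetyl-CoA carboxylase 2 (Acacb) sits at the mitochondrial outer membrane, where its malonyl-CoA inhibits carnitine palmitoyltransferase. Malic enzyme (Me1) supplies NADPH, and Thrsp (Spot 14) is a small protein that promotes lipogenesis. The pathway is driven by SREBP-1 (Srebf1), under insulin and the liver X receptor, and by the carbohydrate sensor ChREBP (Mlxipl). Brown fat runs this pathway beside fatty acid oxidation, and chronic β3-adrenergic stimulation or cold is known to raise both. ERRα and ERRγ are orphan nuclear receptors best known for driving mitochondrial and oxidative genes.

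The genes lie on 5 chromosomes in the GENCODE M21 annotation of GRCm38, which is used for position only because the files name no annotation. Acly spans chr11:100476353-100528000, Acaca chr11:84129672-84401651, Fasn chr11:120805846-120824547 and Srebf1 chr11:60199089-60222581. Acacb spans chr5:114146535-114250761, Mlxipl chr5:135089890-135138382, Acss2 chr2:155517948-155585724, Me1 chr9:86581371-86695953 and Thrsp chr7:97412938-97417730. All 9 are protein-coding. Exons of other genes overlap 9.12% of the exon bases of Acss2, 4.24% of Mlxipl, 3.11% of Srebf1 and 0.78% of Me1, and none of the other 5 genes. Whether counting used strand is not given in the sources used here, and reads in those stretches cannot be assigned to a gene.

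Promoters of 4 genes are shown because the results turn on them: Fasn and Acly, which moved apart between the genotypes, and the regulators Srebf1 and Mlxipl. Each run gives the 250 bases before a RefSeq transcription start on GRCm38.p6, 5′ to 3′ on the gene's own strand. Capitals mark exact matches, on either strand, to the NF-Y box CCAAT, the GC box GGGCGG bound by Sp1 and the E-box CACGTG. They also mark GGTTACT, letters that form part of a liver X receptor element.
Fasn, chr11:120824548-120824797, minus strand: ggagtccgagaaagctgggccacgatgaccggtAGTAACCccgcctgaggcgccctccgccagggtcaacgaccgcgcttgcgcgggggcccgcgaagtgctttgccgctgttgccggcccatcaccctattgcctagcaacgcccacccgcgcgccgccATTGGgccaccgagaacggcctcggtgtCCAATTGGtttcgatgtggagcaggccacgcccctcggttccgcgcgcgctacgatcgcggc
Acly, chr11:100528001-100528250, minus strand: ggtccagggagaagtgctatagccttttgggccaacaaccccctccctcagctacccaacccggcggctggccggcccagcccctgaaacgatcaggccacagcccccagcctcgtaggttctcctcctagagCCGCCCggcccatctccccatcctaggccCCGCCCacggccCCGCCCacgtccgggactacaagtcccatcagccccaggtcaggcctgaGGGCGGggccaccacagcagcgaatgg
Srebf1, internal start, chr11:60210472-60210721, minus strand: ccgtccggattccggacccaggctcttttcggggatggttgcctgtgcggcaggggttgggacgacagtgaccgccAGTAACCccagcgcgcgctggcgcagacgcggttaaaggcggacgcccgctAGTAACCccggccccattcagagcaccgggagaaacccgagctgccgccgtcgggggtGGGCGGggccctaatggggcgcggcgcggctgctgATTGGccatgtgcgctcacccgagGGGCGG
Mlxipl, upstream start, chr5:135089640-135089889, plus strand: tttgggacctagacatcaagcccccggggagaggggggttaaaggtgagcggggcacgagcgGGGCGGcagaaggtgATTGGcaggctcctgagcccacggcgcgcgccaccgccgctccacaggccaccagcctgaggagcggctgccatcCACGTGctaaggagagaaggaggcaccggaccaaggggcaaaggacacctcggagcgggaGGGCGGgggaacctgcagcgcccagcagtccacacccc
The Fasn window held 3 CCAAT matches, which begin at positions -90, -62 and -59 from the start, the last 2 of them overlapping, 1 GGTTACT at -217 and no GC box. The Acly window held 4 GC boxes and no CCAAT. The internal start of Srebf1, known for the SREBP-1c form, held GGTTACT at -174 and at -123, 1 CCAAT and 2 GC boxes. The bases just after this start were in no GENCODE M21 transcript of Srebf1. The Srebf1 start that did match, with the window chr11:60222582-60222831, held a CCAAT at -166 and no GGTTACT. The upstream start of Mlxipl, known for the short β form of ChREBP, held the E-box, 1 CCAAT and 2 GC boxes. RefSeq lists 13 starts for the 9 genes, and 8 of the 13 windows held CCAAT, against 33.8% of 32851 windows of all genes. GGGCGG was in 6 of 13 against 32.7% and CACGTG in 1 of 13 against 6.02%. GGTTACT was in 2 of 13, a Fasn and a Srebf1 window, and in 1.88% of all windows. This motif was chosen after the Srebf1 window had been read, so its count cannot be weighed against that share. Exact matches to the sterol response element TCACCCCAC (0.496% of all windows), the ERR half-site AAGGTCA (4.08%) and the cAMP response element TGACGTCA (1.55%) were in none of the 13, which says only that those letters are not in these windows. The tables give 1 value per gene, so transcripts from different starts of Srebf1 or Mlxipl cannot be told apart.

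Recovered reads summed to 8478310 to 9727167 in the WT libraries and to 12468001 to 13263567 in the ERRKO libraries, with no overlap. Depth thus runs with genotype, and its part in the genotype differences was not tested. The 9 genes had from 801 reads (Acss2) to 157935 (Fasn) in a library, so counting error is small beside the spread between libraries. Esrra, the gene of ERRα, was at 41.6 to 83.3 scaled RPKM in the WT libraries and at 5.25 to 8.89 in the ERRKO libraries. Ucp1 was at 446 ± 117 scaled RPKM (mean ± SD, n = 3) in WT_PBS and 2359 ± 570 in WT_CL, against 4.52 ± 1.64 in ERRKO_PBS and 36.8 ± 15.4 in ERRKO_CL. Levels below are RPKM scaled between libraries by median of ratios, because on the deposited scale the median of all tested genes was 0.53 higher in ERRKO_PBS than in WT_PBS and 0.63 higher in ERRKO_CL than in WT_CL (log2). Pan-adipocyte markers were high throughout, at a summed 12336 to 22897. Hepatocyte markers, from another lipogenic tissue, summed to at most 2.10, with Alb at or under 0.127. The 12 skeletal muscle markers, none of them at 0 in every library of a group, summed in WT_PBS to 2.42 to 286.9 and in WT_CL to 2.22 to 369, while in ERRKO_PBS they summed to 99.7 to 3000 and in ERRKO_CL to 200.1 to 1607. The part of muscle transcript in the results was not tested beyond the settings named below. As the samples are whole tissue, fewer cells of a type and less RNA per cell cannot be told apart.

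Thrsp was the highest of the 9 genes in each group and Fasn the second highest, by mean RPKM, a level per length. Acly had rank 3 in both WT groups and ranked lower in both ERRKO groups, at 6 in ERRKO_PBS and 7 in ERRKO_CL. Srebf1 moved the other way, from rank 8 in both WT groups to 4 in ERRKO_PBS and 3 in ERRKO_CL. In WT_PBS the order was Thrsp, Fasn, Acly, Acaca, Acacb, Mlxipl, Me1, Srebf1 and Acss2. There Fasn (61.4 to 155), Acly (73.9 to 136) and Acaca (61.2 to 86.3) had overlapping ranges of scaled RPKM, and each lower gene overlapped its neighbours in the order. The step from Thrsp to Fasn was the single one in this order without overlap in WT_PBS. In WT_CL Thrsp at 1241 to 2486 overlapped Fasn at 355 to 1328.

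**Figure D1:**
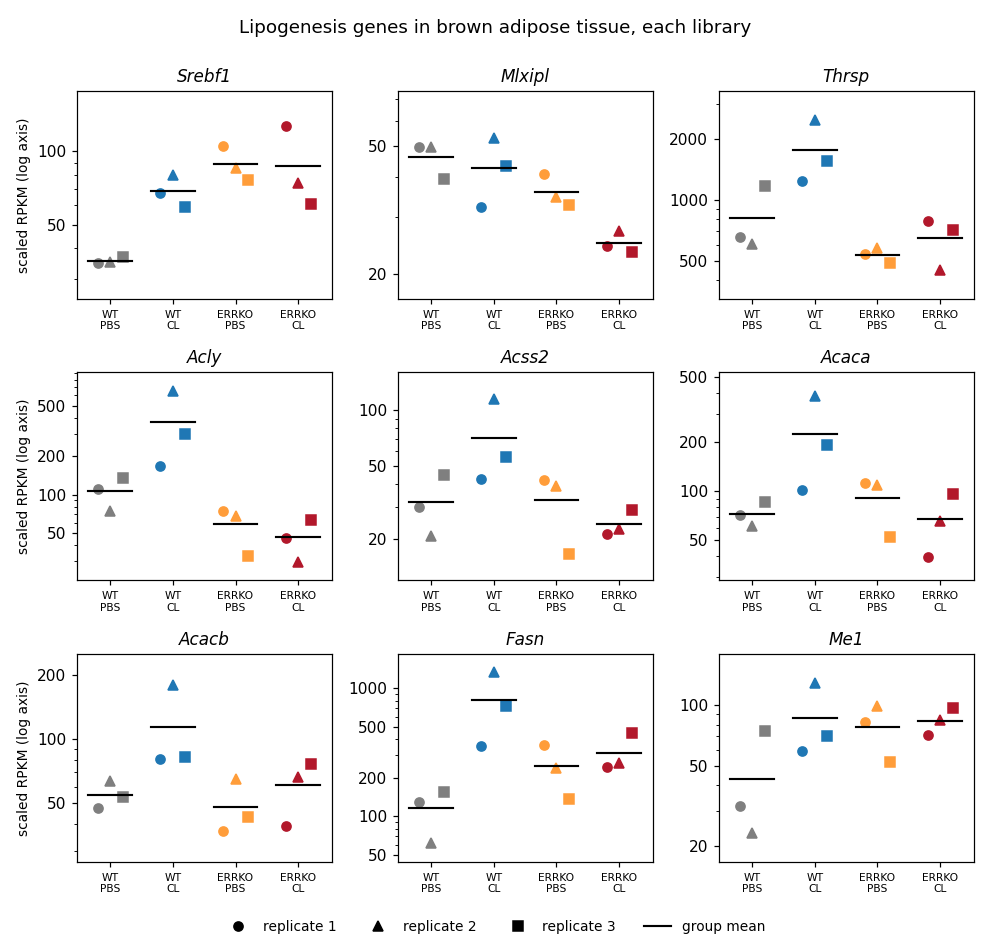
Scaled RPKM (log axis) of the 9 lipogenesis genes in each of the 12 libraries, by group, with replicate numbers as symbols and the group mean as a line. WT_CL replicate 2 is the highest WT_CL library in all 9 panels, and Acly is lower in each ERRKO_CL library than in each WT library.

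The agonist in wild-type mice was followed by a rise in 6 of the 9 genes, and no gene fell (limma, adjusted p under 0.05 over all genes tested). Of all 12249 genes, 18.1% were called higher and 12.2% lower in this comparison. The fatty acid synthase gene Fasn rose most, 6.53-fold, followed by Acly at 3.09-fold, Acaca at 2.70-fold, Thrsp at 2.19-fold, Acacb at 1.95-fold and Srebf1 at 1.90-fold. In ERRKO mice the same treatment gave no called change in any of the 9, against 7.01% higher and 3.54% lower of all genes. By edgeR the count was also 0, by DESeq2 it was 1, and 1 gene had an unadjusted p under 0.05, Mlxipl in both cases. Of all 12249 genes, 3118 had an unadjusted p under 0.05 there, and DESeq2 called 1156 higher and 671 lower of 12378. The difference between the genotypes in the response to the agonist (the interaction) was negative for all 9 genes, but none passed over all genes. Of the 9, 5 had an unadjusted p under 0.05, and the count that passed was 0 by edgeR and 2 by DESeq2 (Fasn and Srebf1). Of all 12249 genes, 2294 had an unadjusted p under 0.05 for the interaction. DESeq2 called 402 higher and 421 lower of 12378 for it, and limma called 1.92% of all genes higher and 1.95% lower. The median log2 change of the 9 genes with the agonist was 1.09 in WT and -0.09 in ERRKO, beside 0.02 and 0.03 over all genes tested.

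The count of 6 in WT rests on few libraries. It was 2 without WT_CL replicate 2, where Fasn (2.24, adjusted p = 0.0101, limma) and Srebf1 (0.82, adjusted p = 0.0359) remained called, 2 without WT_PBS replicate 2 and 3 without WT_PBS replicate 1. In that order these fits called 1717, 1659 and 1864 of all 12249 genes higher, beside 2218 with all libraries. On the deposited scale 4 genes were called higher (Fasn, Acly, Thrsp and Srebf1) and 1 lower (Mlxipl), against 7.20% and 38.1% of all genes. For ERRKO_CL against ERRKO_PBS that scale called 0 higher and 1 lower, again Mlxipl, against 3.23% and 13.7%, and for the interaction none, against 3.88% and 1.26%. The 2 WT groups did not overlap for 6 of the 9 genes, against 43.0% of all genes, and the 2 ERRKO groups for 1 of the 9, Mlxipl, against 32.1%.

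**Figure D2:**
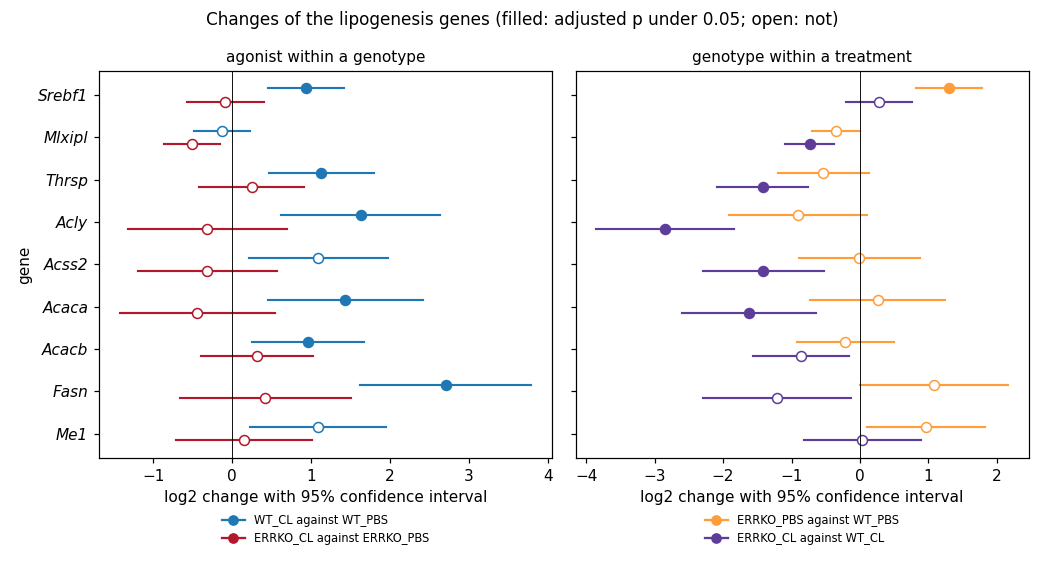
Log2 change of each lipogenesis gene with its 95% confidence interval, for the agonist within each genotype (left) and the genotype within each treatment (right), with filled points where the adjusted p is under 0.05. In WT 6 of 9 agonist changes are filled, in ERRKO none, and the Acly difference of -2.85 in agonist-treated mice is the one farthest from 0 at the right.

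Srebf1, the gene of the transcription factor SREBP-1, was the gene of the 9 most raised by the deletion without the agonist. Its scaled RPKM was 34.7, 35.3 and 36.9 in WT_PBS, 67.5, 79.9 and 59.0 in WT_CL, 105, 85.9 and 76.3 in ERRKO_PBS, and 127, 74.5 and 61.0 in ERRKO_CL. WT_PBS was thus low and tight, and the other groups lay above it with no overlap. The log2 difference of ERRKO_PBS from WT_PBS was 1.30 ± 0.22 (SE), 2.46-fold, with adjusted p = 0.000718. In WT the agonist raised it by 0.93 ± 0.22 (adjusted p = 0.00792), and in ERRKO the change was -0.09 ± 0.22, with a 95% interval from -0.57 to 0.40. With the agonist the genotypes overlapped, at a difference of 0.28 ± 0.22 that was not called (adjusted p = 0.333) but was 0.99 on the deposited scale (adjusted p = 0.00164). The interaction of -1.02 ± 0.31 missed the threshold (adjusted p = 0.0978), and passed without ERRKO_CL replicate 1 (-1.32, adjusted p = 0.0110), the library with the highest Srebf1 of all 12.

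Mlxipl, the gene of ChREBP, did not rise with the agonist in either genotype. Its scaled RPKM was 49.7, 49.7 and 39.5 in WT_PBS, 32.2, 53.0 and 43.3 in WT_CL, 40.8, 34.6 and 32.8 in ERRKO_PBS, and 24.5, 27.2 and 23.4 in ERRKO_CL. The ERRKO_CL libraries were below those of the other groups with no overlap. ERRKO_CL was below WT_CL by 0.74 ± 0.16 on the log2 scale (adjusted p = 0.00324), but the deposited scale gave -0.03 and did not call it (adjusted p = 0.873). Within ERRKO the agonist change was -0.51 ± 0.16 (adjusted p = 0.0661), and -0.72 on the deposited scale, which called it (adjusted p = 0.0165). In WT it was -0.13 ± 0.16 (adjusted p = 0.588), and -0.45 on the deposited scale, where it was called lower (adjusted p = 0.0492).

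Thrsp had the highest level of the 9 genes. It was at 652, 606 and 1172 scaled RPKM in WT_PBS, 1241, 2486 and 1569 in WT_CL, 537, 580 and 484 in ERRKO_PBS, and 782, 452 and 712 in ERRKO_CL. Each WT_CL library was above each library of the other groups, and each ERRKO_PBS library was below each WT_PBS library. The agonist raised Thrsp by 1.13 ± 0.30 in WT (log2, adjusted p = 0.0155), which was not called without WT_CL replicate 2 (0.85, adjusted p = 0.0670), WT_PBS replicate 1 (1.01, adjusted p = 0.0539) or WT_PBS replicate 2 (0.95, adjusted p = 0.0655). ERRKO_CL was lower than WT_CL by 1.42 ± 0.30 (adjusted p = 0.00270, or 0.138 after quantile normalization), and ERRKO_PBS differed from WT_PBS by -0.54 ± 0.30, which was not called (adjusted p = 0.196).

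Acly, which supplies acetyl-CoA from citrate, showed the largest genotype difference of the 9 genes in agonist-treated mice. Its scaled RPKM was 110, 73.9 and 136 in WT_PBS, 167, 652 and 300 in WT_CL, 74.4, 67.6 and 32.8 in ERRKO_PBS, and 45.8, 29.6 and 62.6 in ERRKO_CL. The WT_CL libraries were the 3 highest and spread over 3.89-fold, and the ERRKO_CL libraries were all below the lowest WT library. The log2 difference of ERRKO_CL from WT_CL was -2.85 ± 0.46, 7.20-fold lower, with adjusted p = 0.000374, and was -2.14 on the deposited scale (adjusted p = 0.00104). Without the agonist the difference was -0.91 ± 0.46 (adjusted p = 0.150), with a 95% interval from -1.92 to 0.10. The WT rise of 1.63 ± 0.46 (adjusted p = 0.0196) was not called without WT_CL replicate 2 (1.11, adjusted p = 0.0769) or WT_PBS replicate 2 (1.38, adjusted p = 0.0787).

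Acss2, the enzyme that activates cytosolic acetate, was among the lowest of the 9. Its scaled RPKM was 30.0, 20.6 and 44.4 in WT_PBS, 42.4, 115 and 55.5 in WT_CL, 41.6, 39.0 and 16.6 in ERRKO_PBS, and 21.4, 22.6 and 28.7 in ERRKO_CL. WT_CL overlapped WT_PBS, and ERRKO_CL was wholly below WT_CL. The agonist change in WT, 1.09 ± 0.40, was not called (adjusted p = 0.0603). ERRKO_CL was lower than WT_CL by 1.41 ± 0.40 (adjusted p = 0.0144), which the deposited scale did not call (-0.70, adjusted p = 0.119), nor did the fit without WT_CL replicate 2 (-1.0, adjusted p = 0.0617).

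Acaca and Acacb encode the paired carboxylases, and both rose with the agonist in WT, Acaca 2.70-fold and Acacb 1.95-fold. Acaca was at 71.3, 61.2 and 86.3 scaled RPKM in WT_PBS, 101, 384 and 194 in WT_CL, 112, 109 and 52.8 in ERRKO_PBS, and 39.8, 65.7 and 96.9 in ERRKO_CL. Acacb was at 47.5, 63.5 and 53.6 in WT_PBS, 81.0, 180 and 82.6 in WT_CL, 37.2, 64.9 and 42.9 in ERRKO_PBS, and 39.1, 66.7 and 76.3 in ERRKO_CL. For both genes the WT_CL libraries were above WT_PBS and ERRKO_CL without overlap. The agonist in WT raised Acaca by 1.43 ± 0.45 (log2, adjusted p = 0.0308) and Acacb by 0.96 ± 0.32 (adjusted p = 0.0420). Neither was called without WT_CL replicate 2 (Acaca 0.95 and adjusted p = 0.123, Acacb 0.58 and adjusted p = 0.163) or on the deposited scale (1.11 and adjusted p = 0.0578, 0.63 and adjusted p = 0.119). Acacb also lost its call without any 1 WT_PBS library, ERRKO_PBS replicate 3 or ERRKO_CL replicate 2, and Acaca without WT_PBS replicate 1, WT_PBS replicate 2 or WT_CL replicate 3. In ERRKO_CL against WT_CL Acaca was lower by 1.62 ± 0.45 (adjusted p = 0.0123), and not called with the deposited values (-0.91, adjusted p = 0.0765), without WT_CL replicate 2 (-1.14, adjusted p = 0.0512) or without ERRKO_CL replicate 1 (-1.29, adjusted p = 0.0533). Acacb differed there by -0.86 ± 0.32, just past the threshold on the uncalled side (adjusted p = 0.0507), and its call went both ways. It was called by edgeR (-0.93, adjusted p = 0.0415), but the difference was -0.15 with the deposited values (adjusted p = 0.670), and it was -0.48 without WT_CL replicate 2 (adjusted p = 0.208).

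Fasn, the enzyme that assembles palmitate, changed most with the agonist in WT. Its scaled RPKM was 128, 61.4 and 155 in WT_PBS, 355, 1328 and 730 in WT_CL, 361, 238 and 135 in ERRKO_PBS, and 240, 258 and 444 in ERRKO_CL. WT_CL was wholly above WT_PBS, while both ERRKO means lay between those of the WT groups, and each ERRKO group overlapped WT_CL. The agonist raised Fasn by 2.71 ± 0.50 in WT (adjusted p = 0.00184), and leaving out any 1 library gave 2.24 to 3.20. In ERRKO the change was 0.41 ± 0.50, with a 95% interval from -0.67 to 1.50, and the interaction was -2.29 ± 0.70 (adjusted p = 0.0968). Between the genotypes Fasn stood at 1.08 ± 0.50 in PBS-treated mice, higher in ERRKO (adjusted p = 0.113), and at -1.21 ± 0.50 with the agonist (adjusted p = 0.0699). The PBS difference was called with the deposited values (1.68, adjusted p = 0.00846), and the agonist difference by edgeR (-1.37, adjusted p = 0.0435), by DESeq2, and without WT_CL replicate 1 (-1.70, adjusted p = 0.0175). The same agonist difference shrank to -0.75 without WT_CL replicate 2 (adjusted p = 0.263) and to -0.38 after quantile normalization (adjusted p = 0.543).

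Me1, the cytosolic malic enzyme, was the 1 enzyme of the 9 whose mean log2 level in ERRKO_CL was not below that in WT_CL. It was at 31.6, 23.3 and 74.6 scaled RPKM in WT_PBS, 59.0, 129 and 70.5 in WT_CL, 82.2, 98.8 and 52.1 in ERRKO_PBS, and 71.1, 84.4 and 96.4 in ERRKO_CL. The 4 groups overlapped, with WT_PBS replicate 3 far above the other WT_PBS libraries. The agonist change in WT was 1.08 ± 0.40 (log2, adjusted p = 0.0568), and ran from 0.74 without WT_PBS replicate 2 (adjusted p = 0.215) to 1.56 without WT_PBS replicate 3 (adjusted p = 0.00464). ERRKO_PBS differed from WT_PBS by 0.97 ± 0.40 (adjusted p = 0.0775), which passed without replicate 3 of WT_PBS (1.45, adjusted p = 0.00595) and before scaling, with the deposited values (1.56, adjusted p = 0.00261), but was 0.62 without WT_PBS replicate 2 (adjusted p = 0.269). With the agonist the genotypes differed by 0.04 ± 0.40, with a 95% interval from -0.82 to 0.90.

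Between the genotypes without the agonist, 1 of the 9 genes was called higher, Srebf1, and none lower, against 15.6% and 18.6% of all genes tested. On the deposited scale 3 were higher, Srebf1, Fasn and Me1, and none lower, against 66.3% and 6.22%. The ranges of ERRKO_PBS and WT_PBS did not overlap for 2 of the 9 (Srebf1 and Thrsp), against 45.0% of all genes. With the agonist, 5 were lower in ERRKO, Acly, Acaca, Acss2, Thrsp and Mlxipl, and none higher, against 21.6% and 19.9% of all genes. The deposited scale left 2 lower, Acly and Thrsp, and 1 higher, Srebf1, against 6.62% and 70.5%. Ranges did not overlap for 6 of the 9, against 54.7% of all genes. The 5 became 3 without WT_CL replicate 2 and 3 with muscle transcript level as a covariate. Those fits called 2327 and 2236 of all 12249 genes lower, beside 2640 in the main fit. The median log2 difference of the 9 was -0.01 in PBS-treated mice and -1.21 in agonist-treated mice, beside 0.00 and 0.01 over all genes, and on the deposited scale 0.58 and -0.50 beside 0.53 and 0.63. Beside these differences, brown adipocyte markers summed in WT_PBS to 2898 to 4943 and in WT_CL to 7225 to 9263, while in ERRKO_PBS they summed to 417 to 715 and in ERRKO_CL to 1245 to 1564. White adipocyte markers, with 6 of 8 tested, summed to 249 to 349, 60.2 to 65.8, 1273 to 1337 and 942 to 1082 in the same order. Such sums follow the highest genes of a list. Of the 12 brown markers, 6 were called lower and 0 higher in ERRKO_PBS against WT_PBS (median log2 difference -0.38). In ERRKO_CL against WT_CL 8 were lower and 1 higher (median -1.26). The deposited scale gave 5 lower and 4 higher (median -0.06), and 6 lower and 3 higher (median -0.57). Of the 6 white markers tested, 5 and 4 were higher in the same 2 comparisons, with 0 lower. The part of either marker list in the lipogenesis results was not tested.

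The ratio of 2 genes within a library does not depend on how the libraries are scaled, so the 36 ratios among the 9 genes were tested for genotype and for the agonist, a test added after the data had been seen. Each used an exact permutation over libraries within the strata of the other factor, with 400 assignments, a smallest possible two-sided p of 0.005 and Benjamini-Hochberg adjustment over all 72 ratio tests. For genotype 17 of 36 ratios passed, and for the agonist 7 of 36. The 36 ratios share the 9 genes, so they are not independent. Ratios among other genes were not tested, so no share over all genes stands beside these counts. Acly, Me1 and Srebf1 were in 6 passing genotype ratios each, and Fasn and Mlxipl in 4 passing agonist ratios each.

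Fasn stood further above Acly in the ERRKO libraries. The ratio of Fasn to Acly was 1.16, 0.831 and 1.14 in WT_PBS, 2.12, 2.04 and 2.43 in WT_CL, 4.84, 3.53 and 4.12 in ERRKO_PBS, and 5.25, 8.71 and 7.09 in ERRKO_CL. The 4 groups formed 4 steps with no overlap. Over both treatments it was 3.54-fold higher in ERRKO, and over both genotypes 1.88-fold higher with the agonist, each with exact p = 0.005, the smallest possible, and adjusted p = 0.0225. WT_CL replicate 2, the outlying library for levels, held a ratio of 2.04, next to 2.12 and 2.43 in the other WT_CL libraries.

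Other ratios to Acly moved the same way with genotype. The ratio of Acaca to Acly was 0.589 to 0.828 in the WT libraries and 1.51, 1.61 and 1.61 in ERRKO_PBS, and 0.868, 2.22 and 1.55 in ERRKO_CL, 2.30-fold higher in ERRKO. Me1 to Acly was at 0.198 to 0.548 in WT and 1.10 to 2.85 in ERRKO, 5.27-fold higher there. Acly over Acss2, the other source of acetyl-CoA, was 2.25-fold lower, and Acly over Srebf1 was 6.44-fold lower. All 4 had exact p = 0.005 and adjusted p = 0.0225. The ratio of Acaca to Acacb differed by 1.11-fold between genotypes (exact p = 0.69), which does not show that the 2 carboxylases respond alike.

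The 2 transcription factor genes also moved apart. Srebf1 over Mlxipl was 0.699, 0.711 and 0.934 in WT_PBS, 2.10, 1.51 and 1.36 in WT_CL, 2.58, 2.48 and 2.33 in ERRKO_PBS, and 5.18, 2.73 and 2.61 in ERRKO_CL. Each group lay above the one named before it. The ratio was 2.55-fold higher in ERRKO and 1.69-fold higher with the agonist, both with exact p = 0.005 and adjusted p = 0.0225. The ratio of Thrsp to Mlxipl rose 2.02-fold with the agonist (exact p = 0.01, adjusted p = 0.0300) and Fasn to Acaca rose 2.10-fold (exact p = 0.005, adjusted p = 0.0225). The 7 passing agonist ratios fell to 3 without ERRKO_PBS replicate 3, and the count for genotype ran from 13 to 17 over the left-out libraries.

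**Figure D3:**
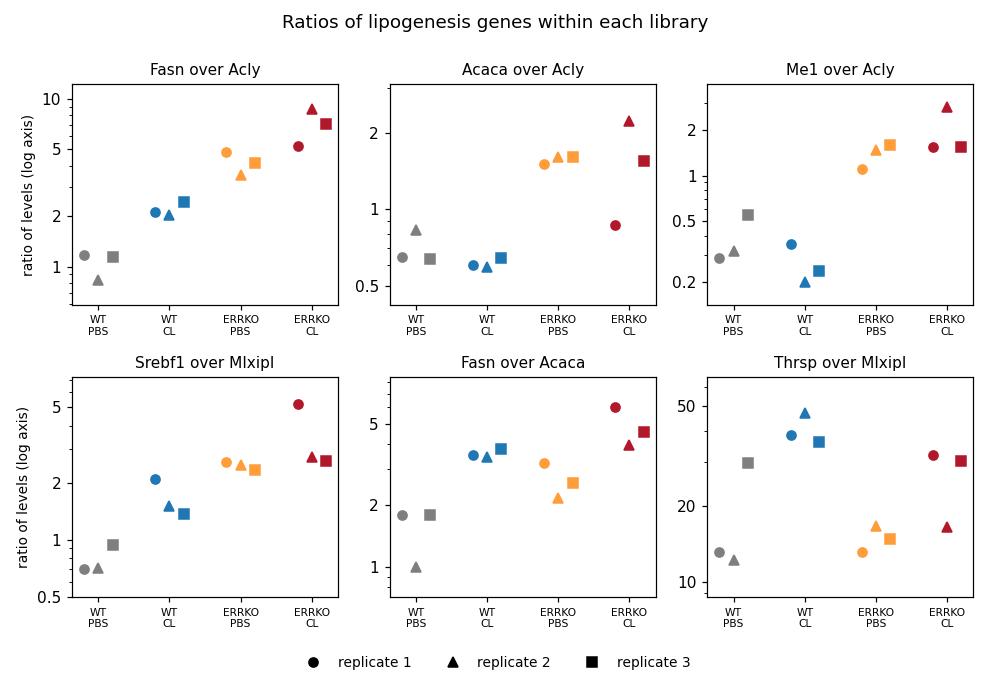
Ratio of the levels of 2 lipogenesis genes within each library (log axis), by group, with replicate numbers as symbols. Fasn over Acly rises in 4 steps without overlap, from 0.831 to 1.16 in WT_PBS to 5.25 to 8.71 in ERRKO_CL.

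Libraries of a group differed more in these genes than in most others. The residual SD of the log2 level was 0.73 for Fasn, 0.68 for Acly, 0.66 for Acaca and 0.22 for Mlxipl, the lowest of the 9, beside a median of 0.17 over all genes tested. Fasn thus varied more than 98.6% of genes and Mlxipl more than 73.3%. WT_CL replicate 2 was the highest of its group for all 9 genes, beside 36.9% of all genes. WT_CL replicate 1 was the lowest for 8, beside 34.2%. ERRKO_PBS replicate 3 was the lowest of its group for 8 of the 9, beside 30.8% of all genes. WT_PBS replicate 3 was the highest of its group for 7, beside 42.5%. The muscle marker sum was 2.22 in WT_CL replicate 2, the lowest of all 12 libraries, and 3000 in ERRKO_PBS replicate 3, the highest. It was 1607 in ERRKO_CL replicate 3, which was the highest of its group for 6 of the 9 lipogenesis genes, beside 30.8% of all genes. Leaving out both replicate 3 libraries of ERRKO gave 6 genes called in WT_CL against WT_PBS, 7 lower in ERRKO_CL against WT_CL and 1 higher in ERRKO_PBS against WT_PBS. Over all 12249 genes that fit called 1993 higher and 1322 lower, 1928 and 2195, and 1441 and 1830 in the same order.

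**Figure D4:**
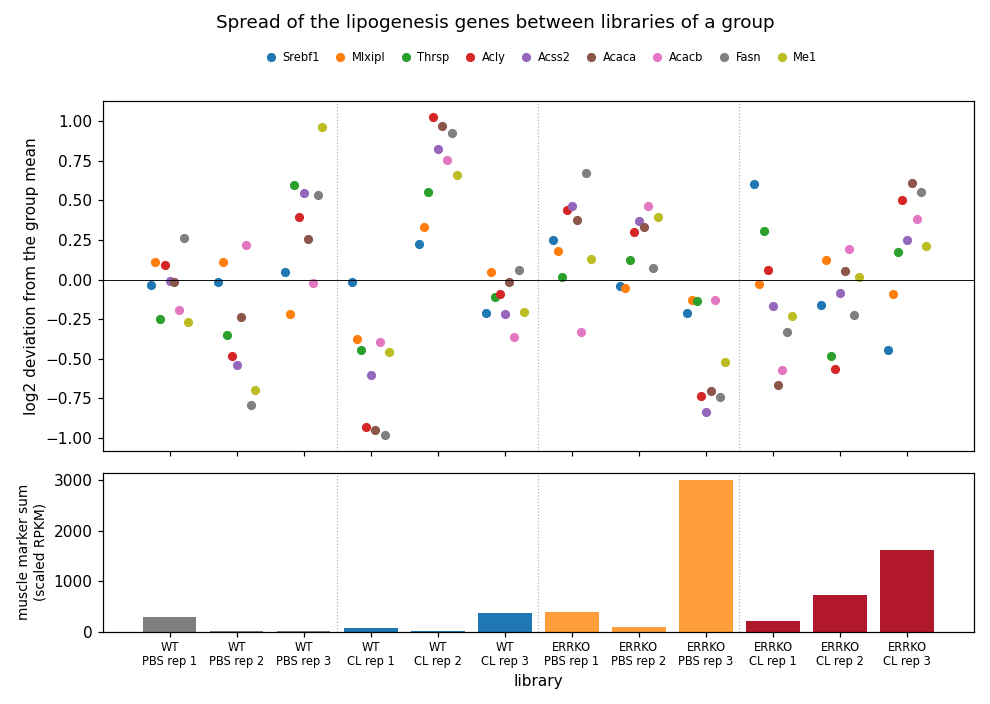
Log2 deviation of each lipogenesis gene from its group mean in each library (top), and the summed scaled RPKM of 12 skeletal muscle markers in the same libraries (bottom, linear axis from 0). All 9 genes lie above 0 in WT_CL replicate 2 and below 0 in ERRKO_PBS replicate 3, which has the highest muscle sum.

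The genes whose centred log2 levels lay nearest to the mean profile of the 9, by root mean square difference over the 12 libraries, were Atg9b (0.16), Eif4e3 (0.22), Taldo1 (0.23), Plin2 (0.27), Nsdhl (0.27), Fdps (0.28), Sorl1 (0.29), Pth1r (0.30), Ldha (0.31) and Pmvk (0.31). Among the 9 themselves Acss2 was the nearest to that profile (0.23), ahead of Acaca (0.32), while Acly (0.77), Srebf1 (0.74) and Fasn (0.66) were the farthest. The mean profile includes each of the 9, so these distances are a description.

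Genes listed for citrate export and cytosolic NADPH rose in WT with the agonist in 9 of 13 cases, with none lower (median 0.68). They include Pgd of the pentose phosphate pathway (1.57 ± 0.22, adjusted p = 0.000371), its partner Taldo1 (1.04 ± 0.20), cytosolic isocitrate dehydrogenase Idh1 (0.86 ± 0.11) and citrate synthase Cs (0.59 ± 0.10). On the deposited scale 6 of the 13 rose in WT and 0 fell. Beside this and the list counts below, 18.1% of all genes rose and 12.2% fell in WT (7.20% and 38.1% on the deposited scale). The shares in ERRKO were 7.01% and 3.54% (3.23% and 13.7% on the deposited scale). In ERRKO 3 of the 13 rose, Idh1 (0.63 ± 0.11), Pgls (0.68 ± 0.16) and the dicarboxylate carrier Slc25a10 (0.92 ± 0.27), the last not called with the deposited values (0.71, adjusted p = 0.0693). Against WT_CL, ERRKO_CL had 9 of the 13 lower and 1 higher, beside 21.6% and 19.9% of all genes. The deposited scale gave 5 and 2, beside 6.62% and 70.5%. Cs (-1.59 ± 0.10) and the malate dehydrogenase Mdh1 (-2.07 ± 0.14) were lower, and Slc25a10 was higher (2.76 ± 0.27, 56.9 ± 7.80 against 7.99 ± 1.41 scaled RPKM). The citrate carrier Slc25a1, which delivers the substrate of Acly, was at 126, 450 and 193 scaled RPKM in WT_CL and at 157, 156 and 192 in ERRKO_CL. WT_CL replicate 2 was again the high library there, and those groups overlapped. Without the agonist Slc25a1 was at 54.2, 49.7 and 86.0 in WT_PBS and at 158, 204 and 111 in ERRKO_PBS. The ERRKO_PBS libraries were wholly above WT_PBS, where 45.0% of all genes had no overlap in either direction.

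Steps after Fasn differed among themselves. Of 13 tested elongation and desaturation genes, 4 rose and 4 fell in WT with the agonist, with a median of 0.02. The elongase Elovl6, which extends palmitate, was at 18.8, 14.8 and 21.7 scaled RPKM in WT_PBS, 77.8, 161 and 85.4 in WT_CL, 15.9, 10.7 and 6.39 in ERRKO_PBS, and 7.89, 9.21 and 15.0 in ERRKO_CL. It rose by 2.46 ± 0.34 in WT, and ERRKO_CL lay 3.25 ± 0.34 below WT_CL. Elovl3, an elongase of brown fat induced by cold, reached 15.5 to 41.7 in WT_CL and 1.66 to 2.58 in ERRKO_CL, from at most 0.155 without the agonist. Of the 11 genes of esterification, which turns acyl-CoA into triglyceride, 9 rose in WT (median 0.59) and 6 in ERRKO (median 0.46), with none lower. On the deposited scale these counts were 4 and 1. Agpat2 rose by 2.71 ± 0.31 in WT, and Dgat1 rose by 1.13 ± 0.14 in WT and 1.00 ± 0.14 in ERRKO.

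Among regulators around Srebf1, 4 of 11 rose in WT and 1 in ERRKO, with none lower (1 higher and 4 lower, and 1 and 1, on the deposited scale). That 1 gene was Insig1, whose product retains the SREBP complex in the endoplasmic reticulum and whose own gene SREBP activates, and it rose by 1.47 ± 0.20 in each genotype. Rxra, the partner of the liver X receptor, was higher in ERRKO by 1.37 ± 0.09 without and 1.20 ± 0.09 with the agonist. Nr1h3, which encodes liver X receptor α, was 0.35 ± 0.09 higher in ERRKO_PBS and rose by 0.54 ± 0.09 in WT, or 0.22 with the deposited values (adjusted p = 0.0666). Of 8 tested genes around ChREBP, 2 rose and 1 fell in WT, and 1 rose in ERRKO, while the deposited values gave 2 higher and 3 lower in WT and 1 lower in ERRKO. Mlx, the dimer partner of ChREBP, rose by 0.94 ± 0.15 in WT and 0.57 ± 0.15 in ERRKO (adjusted p = 0.0324, or 0.123 on the deposited scale). The glucose transporter Slc2a4 was 0.74 ± 0.12 lower in ERRKO_PBS and 0.92 ± 0.12 lower in ERRKO_CL, which was not called on the deposited scale (-0.15, adjusted p = 0.299, and -0.21, adjusted p = 0.149). Of 20 insulin and energy signalling genes, 10 rose and 1 fell in WT and none was called in ERRKO, while the deposited scale gave 3 higher and 3 lower in WT and 1 lower in ERRKO.

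Of 10 paralogs and partners of the 9 genes, 6 rose in WT and 3 in ERRKO, with none lower, or 4 with 3 lower and 2 on the deposited scale. The mitochondrial acetyl-CoA synthetase Acss1 and mitochondrial malic enzyme Me3 are relatives of Acss2 and Me1. Both were lower in ERRKO_PBS than in WT_PBS, with log2 differences of -1.59 ± 0.07 and -3.99 ± 0.26, where Acss2 differed by -0.01 ± 0.40 and Me1 by 0.97 ± 0.40. Malonyl-CoA decarboxylase, Mlycd, which removes the product of Acaca and Acacb, rose by 0.97 ± 0.14 in WT and 0.93 ± 0.14 in ERRKO.

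**Figure D5:**
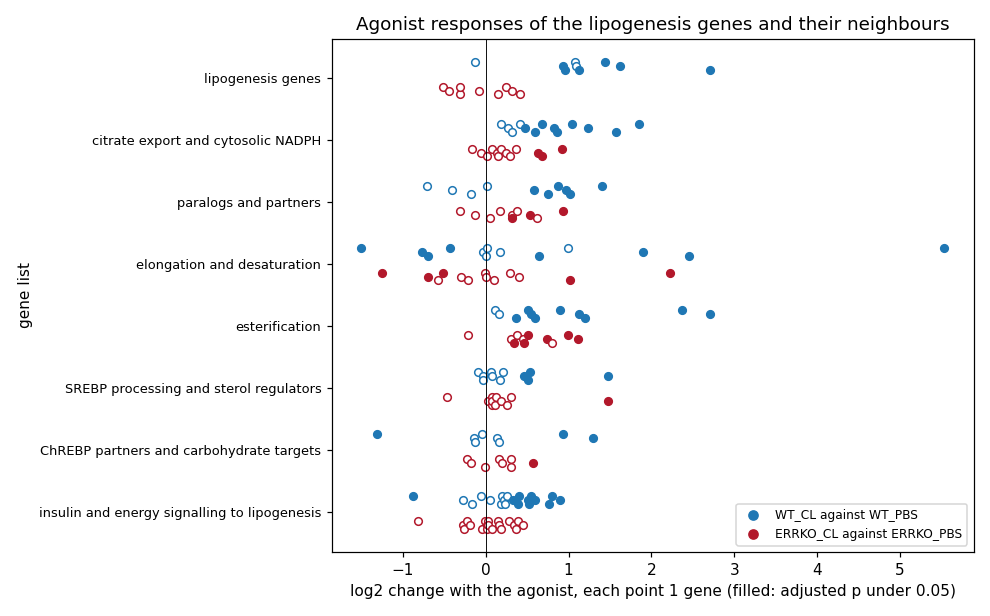
Log2 change with the agonist in WT (blue) and ERRKO (red) for the 9 lipogenesis genes and 7 lists of neighbouring genes, each point 1 gene, filled where the adjusted p is under 0.05. The ERRKO points of the 9 genes are all open, while 6 of the 11 esterification genes are filled in ERRKO.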

How the data were processed

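RNA-seq was made from 1 µg of total RNA per sample with a TruSeq total RNA kit, per the labels' protocols. The submitters' processing notes list STAR 2.3.0, cutadapt, edgeR and bcl2fastq 2.16.0.10 as tools, and mm9 and mm10 as builds without saying what each was used for. How reads were counted, with which annotation and strand setting, is not given in the sources used here. The authors deposited RPKM values for 24452 genes, and a second table with a normalised signal per gene for 12380 genes, which is labelled as log CPM but holds linear values. Of those deposited values, 100% were whole multiples of a step of their library (tolerance 0.01), which gave reads by division. On these reads edgeR 4.0.16 called 2188 genes higher and 2117 lower in ERRKO_PBS against WT_PBS, 2421 and 2662 in ERRKO_CL against WT_CL, 2116 and 1517 in WT_CL against WT_PBS, 686 and 532 in ERRKO_CL against ERRKO_PBS, and 181 and 231 for the interaction. It also held 9 stray cells outside the sample columns, which were left out.

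RPKM were scaled by median of ratios over the 14005 genes above 0 in all 12 libraries. limma 3.58.1 (R 4.3.3, empirical Bayes with trend) fitted log2 of scaled RPKM plus 0.5, which understates changes of low genes, for the 12249 genes whose mean was 0.5 RPKM or more. The model had 4 group means, 12 libraries and 8 residual degrees of freedom. Adjusted p-values are Benjamini-Hochberg values over all genes tested, separately for each of the 5 comparisons, with 0.05 as threshold. The fit was checked on simulated data. No 2 libraries held identical values.

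The 9 genes and all gene lists were chosen with earlier results of these data known. The ratio tests and the motif GGTTACT were added after the data had been seen. From each further list at most 4 genes per comparison are named, those with the smallest p. Esrra and Ucp1 are given as checks, Slc25a1, Elovl6 and Elovl3 per library, and the 10 genes nearest in profile by root mean square difference. Alternatives were pseudocounts of 0.1 and 1, no filter or a mean of 2 RPKM, the deposited scale, quantile normalization, limma without trend, library weights, edgeR and DESeq2 1.42.0 on the recovered reads, the compared groups alone, a replicate block, leaving out the replicate 3 libraries of both ERRKO groups, a muscle covariate, and leaving out each library in turn. Promoter sequences are from RefSeq (GRCm38.p6), where all 9 genes matched by symbol.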

Additional observations from a re-analysis of the deposited data

Results flagged for a closer look

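None of the 9 lipogenesis genes passed the test of the difference between the genotypes in the response to the agonist. That test was the limma interaction, ERRKO response minus WT response, adjusted over all genes tested. Of the neighbouring lists 6 genes passed. They were 2 of 13 tested in elongation and desaturation and 1 of 13 in citrate export and NADPH. The others were 1 of 10 paralogs and partners, 1 of 8 around ChREBP and 1 of 20 in signalling. None of the 11 around Srebf1 or the 11 of esterification passed, and of all genes 1.92% were higher and 1.95% lower. The 9 varied more between libraries than most genes, so these counts do not set them apart from their neighbours. The palmitate elongase Elovl6 differed by -2.46 ± 0.48 (SE, adjusted p = 0.0183), with a rise of 2.46 ± 0.34 in WT. The elongase Elovl3 differed by -3.31 ± 0.39 (adjusted p = 0.000875), though it rose in both genotypes. Pgd, which makes NADPH in the pentose phosphate pathway, differed by -1.42 ± 0.32 (adjusted p = 0.0313), at 115 to 209 scaled RPKM in WT_CL and 42.9 to 49.8 in ERRKO_CL. Gpd1, which makes the glycerol 3-phosphate used in esterification, differed by -1.0 ± 0.22 (adjusted p = 0.0326). Prkaa2, a catalytic subunit of AMP-activated kinase, differed by -0.95 ± 0.22 (adjusted p = 0.0355), at 4.21 ± 0.71 scaled RPKM (SD, n = 3) in WT_CL and 2.51 ± 0.42 in ERRKO_CL. Acss1, the mitochondrial relative of Acss2, went the other way at 0.51 ± 0.11 (adjusted p = 0.0233).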

How the results depend on the processing

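The direction of every called change of the 9 genes held under all alternatives. The number of the 9 called, in either direction, did not. For ERRKO_PBS against WT_PBS it was 1, but 3 on the deposited scale, after quantile normalization or with library weights, 2 with the muscle covariate, and 1 to 2 with a library left out (2 without WT_PBS replicate 3 or ERRKO_PBS replicate 3). Over all 12249 genes the main fit called 1912 higher and 2277 lower there. The deposited scale called 8115 and 762, quantile normalization 2322 and 2249, library weights 2119 and 2455, and the covariate 1403 and 1713. The fit without WT_PBS replicate 3 called 1886 and 2246, and that without ERRKO_PBS replicate 3 1530 and 1943. For ERRKO_CL against WT_CL the number of the 9 called was 5, but 3 on the deposited scale or with the muscle covariate, 4 after quantile normalization, 6 with a mean of 2 RPKM, 7 by edgeR, by DESeq2 or without both replicate 3 libraries of ERRKO, and 3 to 7 with a library left out. Over all genes the main fit called 2433 higher and 2640 lower. The deposited scale called 8640 and 811, the covariate 2064 and 2236, quantile normalization 2668 and 2485, and DESeq2 2551 and 2699. A mean of 2 RPKM called 2184 and 2405 of 9830, edgeR 2421 and 2662 of 12380, and the fit without both replicate 3 libraries 1928 and 2195. Leaving out WT_CL replicate 2, with 3 of the 9 called, gave 2083 and 2327. Leaving out WT_CL replicate 1, with 7 called, gave 2040 and 2283. For WT_CL against WT_PBS the number of the 9 called was 6, but 3 after quantile normalization, where Acaca, Acacb and Thrsp lost their calls, 4 without a filter, 5 on the deposited scale, 7 with library weights or by DESeq2, 8 with the muscle covariate, and 2 to 7 with a library left out. Over all genes the main fit called 2218 higher and 1499 lower. Quantile normalization called 1909 and 1823, no filter 2195 and 1462 of 18156, and the deposited scale 882 and 4671. Library weights called 2829 and 2107, DESeq2 2271 and 1611, and the covariate 2171 and 1427. For ERRKO_CL against ERRKO_PBS the number of the 9 called was 0, but 1 on the deposited scale, after quantile normalization, with library weights, by DESeq2 or with the compared groups alone, and 0 to 1 with a library left out (Mlxipl each time, in the last case without WT_PBS replicate 3, WT_CL replicate 1 or WT_CL replicate 2). Over all genes the main fit called 859 higher and 434 lower. The deposited scale called 396 and 1672, quantile normalization 771 and 639, and library weights 1261 and 591. DESeq2 called 1156 and 671, and the compared groups alone 685 and 427. For the interaction the number of the 9 called was 0, but 2 with library weights or by DESeq2, and 0 to 1 with a library left out. Over all genes the main fit called 235 higher and 239 lower, library weights 489 and 635, and DESeq2 402 and 421. The fit without ERRKO_CL replicate 1, with 1 of the 9 called, gave 136 and 133. Passing ratios numbered 7 for the agonist, or 3 to 8 with a library left out. Without a filter on low values Acaca and Acacb were not called in WT (adjusted p = 0.0688 and 0.0863, limma).

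Changes without a call turned sign in these cases, and the cause was not tested. For ERRKO_PBS against WT_PBS the deposited scale gave 0.38 for Acacb, 0.58 for Acss2, 0.060 for Thrsp and 0.24 for Mlxipl, and the muscle covariate 0.10 for Acacb and 0.43 for Acss2. Acss2 there was also 0.14 after quantile normalization, 0.17 with library weights, 0.065 by edgeR, 0.033 by DESeq2, 0.41 without both replicate 3 libraries of ERRKO and -0.28 to 0.41 with a library left out. For ERRKO_CL against WT_CL Me1 was -0.046 by edgeR, -0.040 by DESeq2, -0.068 without both replicate 3 libraries and -0.19 to 0.37 with a library left out, and Srebf1 -0.018 to 0.51. Mlxipl in WT_CL against WT_PBS was -0.30 to 0.059 with a library left out. For ERRKO_CL against ERRKO_PBS leaving out both replicate 3 libraries gave -0.23 for Fasn, -0.22 for Me1 and 0.031 for Srebf1. Me1 there was -0.059 on the deposited scale, -0.0097 after quantile normalization and -0.11 to 0.35 with a library left out, and Srebf1 was -0.39 to 0.14.

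Whether same-numbered libraries share more than a number is not settled here. Over 18 same-numbered pairs the correlation of their deviations ran from -0.39 to 0.45, with 7 pairs over 0.1. For 0 of 12 libraries was the same-numbered library the best correlated one in every other group at once, which is a strict count. With the replicate number as a block, 1, 6, 6, 0 and 0 of the 9 genes were called in the 5 comparisons, the added one being Acacb in ERRKO_CL against WT_CL (adjusted p = 0.00788, limma). Of all genes the block fit called 1835 higher and 2211 lower, 2349 and 2580, 2103 and 1424, 718 and 383, and 196 and 169.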
